A study of Mus musculus with 6 samples.

Results

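Genes of the interferon response and of antigen presentation were followed in mouse embryonic fibroblasts (MEFs), a mixed mesenchymal population grown out of E13.5 embryos. The members are the 39 genes of a list chosen by name, with earlier results of these data known. All were found among the 49315 genes of the authors' deposited table, and 32 of them passed the filter on low values and were tested. The R206H cells were heterozygous for the R206H allele of Acvr1 (Acvr1R206H/+), the classical mutation of fibrodysplasia ossificans progressiva, and the wild-type cells were Acvr1+/+. Both genotypes were grown in DMEM with 10% fetal bovine serum and were harvested at passage 0 after 2 days, with no added interferon or other agent named in the labels. Each genotype had 3 libraries of rRNA-depleted total RNA, described by the design text as biological replicates. The sources used here do not name the strain, the litters or how many embryos a library holds. The design text set out to compare RNA between mutant and wild-type cells.

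Type I interferons bind a receptor made of IFNAR1 and IFNAR2, which activates the kinases JAK1 and TYK2. Downstream of these kinases the complex ISGF3, which contains STAT2 and IRF9, binds interferon-stimulated response elements (ISREs) in the promoters of interferon-stimulated genes (ISGs). Interferon gamma acts mainly through gamma-activated sites (GAS), and induces IRF1 and the genes for loading peptides onto class I molecules. Fibroblasts are a classical producer of, and responder to, type I interferon, and low tonic signalling keeps some ISGs expressed without infection.

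Values are TPM, transcripts per 1000000, which compare genes per length. Changes are differences of log2(TPM + 1), R206H minus wild type, a scale that shrinks the changes of low genes. A ratio is mean TPM in R206H over mean TPM in wild type. SDs have n = 3. A gene was called at a Benjamini-Hochberg adjusted p under 0.05 over all 14818 genes tested with limma, the ones that reached 1 TPM in 3 or more libraries. Rebuilding reads from TPM and gene length gave totals, in units of 1000000 assigned reads or pairs, of 17.8 to 21.7 in R206H libraries and 17.5 to 24.6 in wild-type libraries. In bulk RNA, fewer cells of a type and less RNA per cell cannot be told apart. Summed fibroblast marker TPM was 11265 to 13995 in R206H libraries against 7443 to 9608 in wild-type libraries, from 12 genes that were all detected in each library. The collagen gene Col1a1 was a large part of this sum, at 3975 to 5722 TPM in R206H libraries against 1501 to 3212 TPM in wild-type libraries. Vim, the 1 marker of the 12 with a negative log2 change, averaged 3117 TPM in R206H and 3203 TPM in wild type. Wild-type library 1 differed from its replicates across many of the members, so values are given library by library, in the order of replicates 1, 2 and 3, with its effect beside them. Library weights from limma over all genes tested are lower for libraries less like their replicates. They were lowest for R206H library 3, at 0.483, and next lowest for wild-type library 1, at 0.55.

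Across the members, most values were higher in R206H cells, but 1 gene passed the threshold. That gene was Apol6, of 32 tested, and none was called lower, beside 1.26% of all genes called higher and 0.790% called lower. At an unadjusted limma p under 0.05 there were 12 members higher and 1 lower, or 37.5% and 3.12% of those tested, against 14.4% and 11.7% of all genes (26.1% in either direction). The median log2 change of the tested members was 0.32, beside 0.02 over all genes tested, and 28 of the 32 values were positive (87.5%, against 53.6% of all genes). The genotypes did not overlap for 12 of the 32, with 11 higher in R206H (34.4%, against 17.9% of all genes) and Ifit2 lower (15.0% of all genes were lower without overlap). Apol6 reached the filter only through the R206H libraries and so had to differ. limma voom on the rebuilt reads called 7 members higher and 1 lower, beside 4.61% and 4.09% of all genes called by voom.

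**Figure D1:**
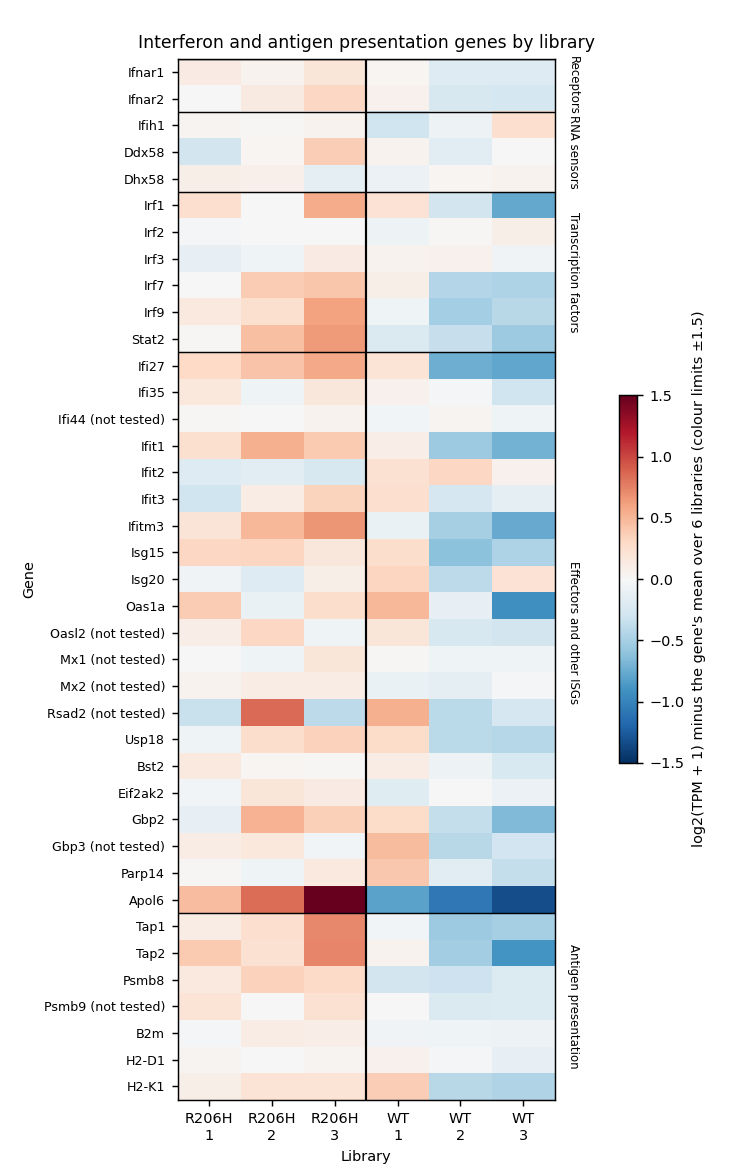
Each row is a member, grouped by role, and each column a library, R206H at the left. Colour gives log2(TPM + 1) minus the gene's mean over the 6 libraries. Wild-type library 1 has the colours of the R206H libraries for Isg15, Ifi27, H2-K1 and Gbp2, while wild-type libraries 2 and 3 are low for them.

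Wild-type library 1 lay above both other wild-type libraries for 25 of the 32 tested members, or 78.1%, against 45.9% of all genes tested. It exceeded each of them by more than 1.5 times for 11 members, or 34.4%, against 5.47% of all genes. The 11 ranged from Oas1a, with 3 to 23 rebuilt reads a library, to H2-K1, with 430 to 630. The share over all genes was not matched for level. For 18 members wild-type library 1 fell within or above the R206H range. For each library, the median over members of the deviation from the member's own mean was 0.07, 0.12 and 0.28 in R206H libraries 1, 2 and 3, against 0.06, -0.26 and -0.33 in wild-type libraries 1, 2 and 3. Wild-type library 1 was nearest to R206H library 1. Without wild-type library 1 the median log2 change was 0.46 and the members called were Ifitm3, Ifi27, Isg15 and H2-K1, all higher, beside 1.56% of all genes called higher in that fit. With these 5 libraries the genotypes did not overlap for 22 of the 32 members higher in R206H and 2 lower, Ifit2 and Irf2, beside 28.3% of all genes higher and 20.3% lower. Among those higher, Ifit1, Irf7, Usp18 and Apol6 were under 1 TPM in wild-type libraries 2 and 3. Within the 5 libraries they reached the filter only through R206H and so had to differ. Without R206H library 2 or 3 or wild-type library 2 or 3 no member was called, beside 0 to 4 of all genes. Without R206H library 1, 2 members were called higher, beside 407 of the 14510 genes tested in that fit.

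**Figure D2:**
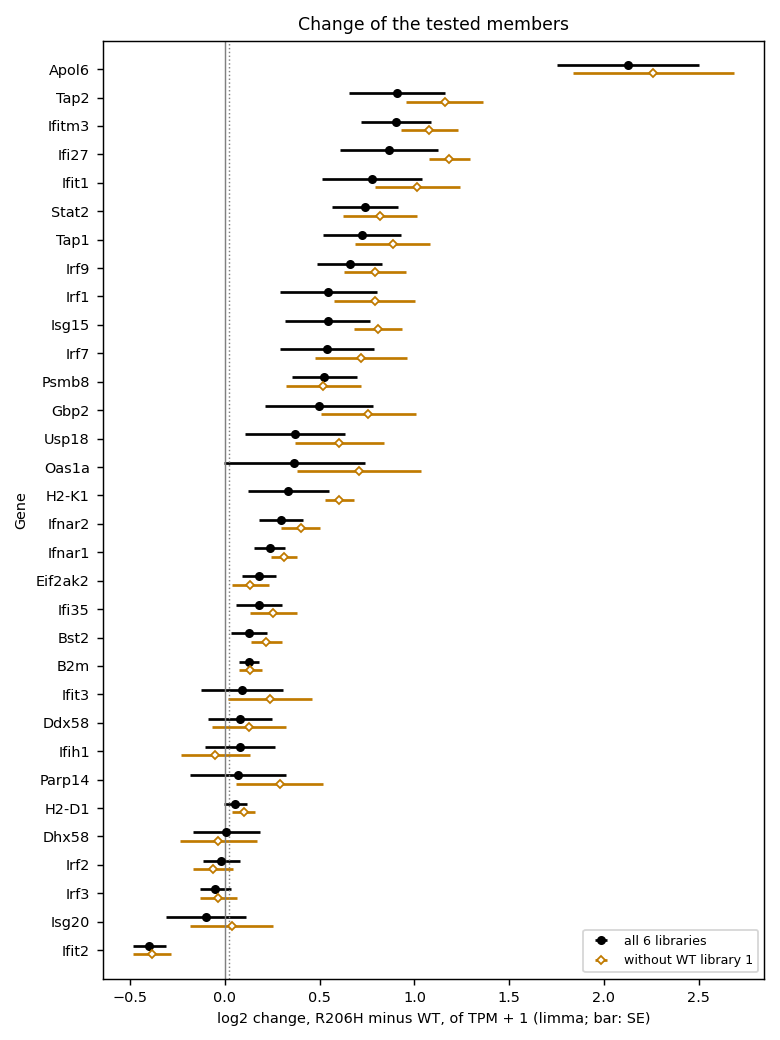
Points give the limma log2 change of TPM + 1, R206H minus wild type, for the 32 tested members, with bars of 1 SE. Filled circles use all 6 libraries and open diamonds leave out wild-type library 1. The dotted line is the median of all genes, 0.02. Apol6 stands at 2.13 and Ifit2 at -0.40.

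Of the receptor genes, Ifnar1 had 48.7, 46.4 and 50.8 TPM in R206H libraries, against 45.65, 39.05 and 39.01 TPM in wild-type libraries. All R206H values were above all wild-type values, with a log2 change of 0.24 that did not pass (SE 0.0809, limma adjusted p = 0.131). Ifnar2 had 35.1, 38.8 and 43.7 TPM in R206H libraries, against 36.7, 29.5 and 29.2 TPM in wild-type libraries, and the genotypes overlapped through wild-type library 1. Transcripts of both subunits were present in all 6 libraries. The 3 genes for RNA sensors, which detect viral RNA in the cytoplasm, had log2 changes of 0.01 to 0.08. Ddx58, which encodes RIG-I, had 8.44, 10.6 and 13.7 TPM in R206H libraries, against 10.8, 9.20 and 10.3 TPM in wild-type libraries. Ifih1, which encodes MDA5, had 2.76, 2.70 and 2.78 TPM in R206H libraries, against 1.97, 2.46 and 3.35 TPM in wild-type libraries. Dhx58, which encodes LGP2, had 1.88, 1.86 and 1.45 TPM in R206H libraries, against 1.56, 1.76 and 1.82 TPM in wild-type libraries. The genotypes overlapped for all 3, and the signs of these small changes depended on the library left out.

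Of the 6 transcription factor genes none was called by limma. At an unadjusted limma p under 0.05 there were 2 (33.3%, against 26.1% of all genes in either direction). By voom the same 2 were called, beside 8.69% of all genes. The 2 were Stat2 and Irf9, subunits of ISGF3, which were higher in every R206H library. Stat2 (chromosome 10, 128270559 to 128292849, GRCm38) had 11.9, 16.5 and 18.8 TPM in R206H libraries, against 10.0, 9.01 and 7.75 TPM in wild-type libraries. Its ratio was 1.76 and its log2 change of 0.74 did not pass with limma (SE 0.174, adjusted p = 0.0678). It did pass with voom, at an adjusted p of 0.0355. Irf9 (chromosome 14, 55603571 to 55610030) had 9.46, 10.1 and 13.3 TPM in R206H libraries, against 8.03, 5.60 and 6.09 TPM in wild-type libraries, a ratio of 1.67. Its log2 change of 0.66 did not pass with limma (adjusted p = 0.0781) and passed with voom (adjusted p = 0.0379). Irf9 shares 123 nt of annotated exon with Rnf31 on the same strand, out of 5386 nt. The genotypes did not overlap for Stat2 or Irf9.

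Irf1 and Irf7 were high in wild-type library 1 as well. Irf1, a factor induced by interferon gamma, had 14.1, 11.8 and 17.7 TPM in R206H libraries, against 13.8, 9.52 and 6.47 TPM in wild-type libraries. Irf7, an ISG that amplifies type I interferon production, had 1.27, 1.95 and 2.00 TPM in R206H libraries, against 1.40, 0.666 and 0.638 TPM in wild-type libraries. Neither passed, with log2 changes of 0.55 and 0.54 (limma adjusted p = 0.23 and 0.223). Irf3, the constitutive factor activated by phosphorylation after RNA or DNA sensing, had 32.5, 33.9 and 38.7 TPM in R206H libraries, against 37.0, 37.4 and 34.4 TPM in wild-type libraries. Irf2, which can repress ISGs, averaged 8.12 ± 0.0903 TPM in R206H and 8.25 ± 0.55 TPM in wild type. The genotypes overlapped for Irf1, Irf7, Irf3 and Irf2.

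**Figure D3:**
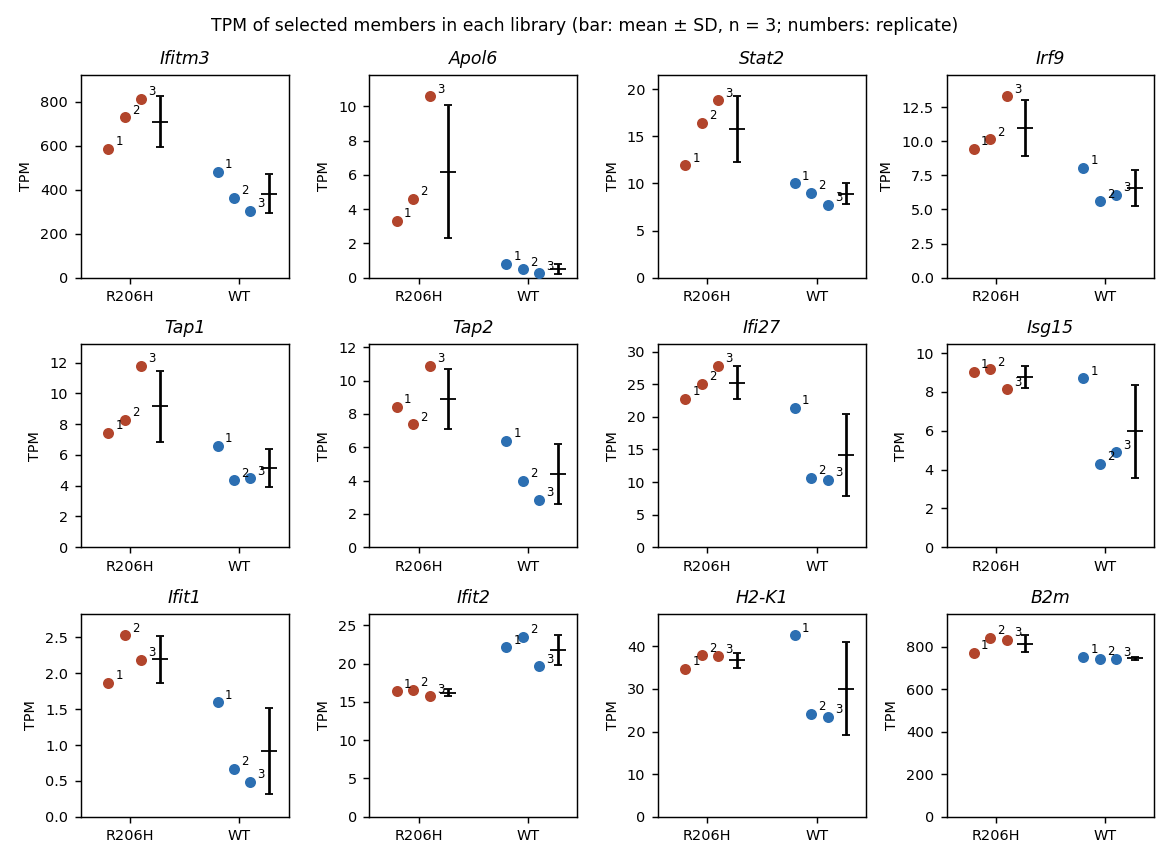
TPM of 12 members in each library, R206H at the left and wild type at the right, with the mean and SD (n = 3) beside the points and the replicate number at each point. Ifitm3 has 587 to 814 TPM in R206H libraries and 303 to 480.5 TPM in wild-type libraries. For Isg15, Ifi27 and H2-K1, wild-type library 1 stands apart from wild-type libraries 2 and 3.

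Among effector genes, Apol6 had the largest change. Apol6 encodes an apolipoprotein L family protein whose human counterpart is induced by interferon gamma, and lies on chromosome 15, 77044729 to 77057106 (GRCm38). It had 3.31, 4.62 and 10.6 TPM in R206H libraries, against 0.801, 0.493 and 0.25 TPM in wild-type libraries. R206H library 3 was the highest, and the lowest R206H value exceeded the highest wild-type value. These values correspond to 87, 99 and 271 rebuilt reads in R206H libraries and 17, 15 and 7 in wild-type libraries. The ratio was 12.0, or 7.70 without R206H library 3, and the log2 change was 2.13 (SE 0.374, limma adjusted p = 0.0476). Without wild-type libraries 1, 2 and 3 in turn, the adjusted p was 0.0552, 0.14 and 0.166. Without any 1 R206H library the gene fell under the filter and was not tested.

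Apol6 shares 64 of its 4498 nt of exon with Mb, the myoglobin gene on the opposite strand, and the strand setting of the counting is not given. Mb had 30.0, 14.6 and 5.20 TPM in R206H libraries, against 37.1, 18.7 and 38.6 TPM in wild-type libraries. R206H library 3, with the most Apol6, had the least Mb. The next coding gene on the other side, Rbfox2, which encodes a splicing factor, had 99.5, 103 and 114 TPM in R206H libraries, against 97.0, 82.3 and 88.1 TPM in wild-type libraries. Of 12 other genes listed with the apolipoprotein L family, 5 were tested. One of them was called, Apold1, which carries an apolipoprotein L domain and was lower, beside 0.790% of all genes called lower. Apold1 had 1.63, 1.18 and 1.53 TPM in R206H libraries against 4.16, 3.94 and 5.86 TPM in wild-type libraries (log2 change -1.20, limma adjusted p = 0.0464). Without wild-type library 1, 2 or 3 or R206H library 2 or 3, Apold1 missed the threshold, at adjusted p of 0.0507 to 0.162. Apol9a averaged 2.82 TPM in R206H and 2.10 TPM in wild type, and did not pass.

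Ifitm3 was the most abundant effector and had the smallest adjusted p after Apol6. It encodes a membrane protein that blocks virus entry from endosomes, and lies on chromosome 7, 141009586 to 141010770. It had 586.8, 729.6 and 813.7 TPM in R206H libraries, against 480.5, 364.5 and 303.2 TPM in wild-type libraries. No wild-type library reached the R206H range. The ratio was 1.86 and the log2 change of 0.90 did not pass with limma (SE 0.184, adjusted p = 0.0568). It passed with voom (adjusted p = 0.0215), without wild-type library 1 (log2 change 1.08, adjusted p = 0.0431) and without R206H library 1 (1.03, adjusted p = 0.0398). Without any 1 of the other libraries it did not pass, at adjusted p of 0.137 to 0.166. Ifitm3 has close paralogs in its cluster, so reads shared among them are a limit on its separate level. Ifitm3 and B2m together made up 74.1% to 76.3% of the members' summed TPM in R206H libraries and 71.8% to 73.4% in wild-type libraries. That sum was 1831, 2059.8 and 2180.3 TPM in R206H libraries and 1718, 1509 and 1421 TPM in wild-type libraries.

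Ifi27, an ISG of the interferon alpha-inducible protein family, had 22.7, 25.0 and 27.8 TPM in R206H libraries, against 21.4, 10.7 and 10.3 TPM in wild-type libraries. Wild-type library 1 lay just under the R206H range, at 2.04 times the mean of the other wild-type libraries. The log2 change was 0.86 with all libraries (limma adjusted p = 0.1) and 1.18 without wild-type library 1 (adjusted p = 0.0276), and voom called the gene (adjusted p = 0.0443). Isg15, which encodes the ubiquitin-like modifier that interferon induces, had 9.05, 9.16 and 8.14 TPM in R206H libraries, against 8.69, 4.30 and 4.89 TPM in wild-type libraries. The genotypes overlapped through wild-type library 1 alone. Its log2 change was 0.54 with all libraries (limma adjusted p = 0.187) and 0.81 without wild-type library 1 (adjusted p = 0.0462). Usp18, which encodes the protease that removes ISG15 and restrains IFNAR2 signalling, had 1.41, 2.03 and 2.21 TPM in R206H libraries, against 2.05, 0.901 and 0.864 TPM in wild-type libraries, and did not pass in either fit.

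The 3 Ifit genes, whose products bind viral RNA or the translation machinery, neighbour each other on chromosome 19 between 34550694 and 34650009 and had unlike values. Ifit1 had 1.87, 2.53 and 2.19 TPM in R206H libraries, against 1.60, 0.668 and 0.484 TPM in wild-type libraries. It was above wild type in every R206H library, with 29, 32 and 33 rebuilt reads against 20, 12 and 8, and did not pass (log2 change 0.78, limma adjusted p = 0.129). Its ratio was 2.39, or 3.81 without wild-type library 1. Ifit2 was the member with the largest downward value, at 16.4, 16.6 and 15.8 TPM in R206H libraries against 22.1, 23.5 and 19.7 TPM in wild-type libraries. Every R206H library was below every wild-type library. Its log2 change was -0.40 (SE 0.0868, limma adjusted p = 0.0618), and it passed with voom (adjusted p = 0.0349). Ifit3 had 2.84, 4.09 and 4.94 TPM in R206H libraries, against 4.62, 2.97 and 3.32 TPM in wild-type libraries, and overlapped. Ifit3 has a close copy, Ifit3b, so its level is uncertain.

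Several other effectors followed the order seen for Isg15, with wild-type library 1 high. Gbp2, a guanylate-binding GTPase, had 2.58, 4.59 and 3.98 TPM in R206H libraries, against 3.71, 2.06 and 1.47 TPM in wild-type libraries. Parp14, an ADP-ribosyltransferase, had 1.34, 1.22 and 1.57 TPM in R206H libraries, against 2.07, 1.08 and 0.812 TPM in wild-type libraries. Oas1a, an oligoadenylate synthetase that activates RNase L, had 2.09, 1.23 and 1.87 TPM in R206H libraries, against 2.36, 1.18 and 0.256 TPM in wild-type libraries, from 3 to 23 reads a library. For all 3 the genotypes overlapped with every library, and did not overlap without wild-type library 1. Gbp and Oas1 genes also belong to families of close copies.

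Another 4 effectors had log2 changes between -0.10 and 0.18. Bst2, which encodes tetherin, a protein that holds budding virions at the cell surface, had 56.8, 52.5 and 51.8 TPM in R206H libraries, against 55.6, 48.5 and 43.6 TPM in wild-type libraries. Eif2ak2, which encodes the RNA-activated kinase PKR, had 21.2, 25.0 and 23.8 TPM in R206H libraries, against 19.2, 21.7 and 20.5 TPM in wild-type libraries. Ifi35 averaged 20.9 ± 1.99 TPM in R206H and 18.4 ± 2.5 TPM in wild type, and Isg20, an exonuclease gene, averaged 4.72 ± 0.561 TPM in R206H and 5.25 ± 1.54 TPM in wild type. The genotypes overlapped for these 4, and their limma adjusted p ran from 0.254 for Eif2ak2 to 0.801 for Isg20.

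Of the 7 members under the filter, 6 were effectors. Rsad2, which encodes viperin, had 0.079, 1.46 and 0.0406 TPM in R206H libraries, against 0.98, 0.0342 and 0.149 TPM in wild-type libraries. One library of each genotype, R206H 2 and wild-type 1, held 30 and 20 rebuilt reads, and the others 4 or fewer. Gbp3, of the same GTPase family as Gbp2, had 0.838, 0.90 and 0.646 TPM in R206H libraries, against 1.36, 0.272 and 0.394 TPM in wild-type libraries. Oasl2 had 0.885, 1.19 and 0.69 TPM in R206H libraries, against 0.998, 0.487 and 0.454 TPM in wild-type libraries. For both genes wild-type library 1 lay with or above the R206H libraries. The dynamin-like GTPase gene Mx1 had 0 to 4 reads in any library and was listed at 0 in 3 of them. Mx2, annotated as a polymorphic pseudogene, had 0.237, 0.29 and 0.292 TPM in R206H libraries, against 0.117, 0.0818 and 0.178 TPM in wild-type libraries, without overlap but from 2 to 6 reads a library. Ifi44 had 5 to 10 reads in any library. These counts are too few to compare.

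Of the 7 genes of class I antigen presentation, 4 of the 6 tested were higher in R206H without overlap (66.7%, against 17.9% of all genes). These were Tap1, Tap2, Psmb8 and B2m. None of the 6 was called by limma, and 3 were higher at an unadjusted p under 0.05 (50%, against 14.4% of all genes). By voom, Tap1 and Tap2 were called higher, beside 4.61% of all genes. Tap1 and Tap2 encode the paired subunits of the transporter that carries peptides into the endoplasmic reticulum. Tap1 had 7.43, 8.28 and 11.8 TPM in R206H libraries, against 6.58, 4.35 and 4.49 TPM in wild-type libraries (ratio 1.78, log2 change 0.72, limma adjusted p = 0.0934, voom adjusted p = 0.0464). Tap2 had 8.41, 7.38 and 10.9 TPM in R206H libraries, against 6.39, 3.99 and 2.85 TPM in wild-type libraries (ratio 2.02, log2 change 0.91, limma adjusted p = 0.0899, voom adjusted p = 0.0393). In both genes the highest wild-type library was library 1. Psmb8, a catalytic subunit gene of the immunoproteasome, had 2.00, 2.46 and 2.31 TPM in R206H libraries, against 1.24, 1.19 and 1.35 TPM in wild-type libraries. Its wild-type libraries were alike, and its log2 change of 0.53 did not pass (limma adjusted p = 0.122, voom adjusted p = 0.0862). Psmb9, another immunoproteasome subunit gene, had 0.561, 0.344 and 0.577 TPM in R206H libraries, against 0.348, 0.162 and 0.176 TPM in wild-type libraries, and was under the filter with 4 to 12 reads. Tap1, Tap2, Psmb8 and Psmb9 lie side by side in the class II region of the major histocompatibility complex on chromosome 17, 34181987 to 34216321. Psmb9 and Tap1 share 212 nt of exon on opposite strands.

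B2m, which encodes the class I light chain beta-2-microglobulin, had 770.0, 841.4 and 831.9 TPM in R206H libraries, against 753.5, 743.4 and 740.0 TPM in wild-type libraries. The ranges did not overlap, and the log2 change of 0.13 did not pass (SE 0.0541, limma adjusted p = 0.197). The heavy chain gene H2-D1 had 75.8, 74.3 and 76.2 TPM in R206H libraries, against 77.2, 72.7 and 68.1 TPM in wild-type libraries. The other heavy chain gene, H2-K1, had 34.8, 37.9 and 37.7 TPM in R206H libraries, against 42.6, 24.2 and 23.5 TPM in wild-type libraries. H2-K1 was highest in wild-type library 1, above every R206H library. Its log2 change was 0.33 with all libraries (limma adjusted p = 0.366) and 0.60 without wild-type library 1 (adjusted p = 0.0408). Class I heavy chain genes are alike in sequence and differ between mouse strains, so their separate levels are uncertain.

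Promoter windows from RefSeq (GRCm38.p6), 250 bases before to 50 after a start site, were found for 31 of the 39 members. Windows for Dhx58, Ifi27, Mx1, Mx2, Usp18, Parp14, Apol6 and Tap2 were not used here. The ISRE core, here GAAA, any 2 bases and GAAA again, on either strand, was present for 15 of the 31 genes (48.4%), against 3.99% of all genes with a window. The GAS letters TTCNNNGAA, which read alike on both strands, were present for 12 (38.7%), against 9.55% of all genes. An ISRE and a GAS match shared bases in 2 of the 31 genes. The sites below, with 15 bases of flank where the window before the start site allows it, are shown because they belong to members whose values are described above. Capitals mark the motif, and the sequence runs 5′ to 3′ on the strand of the gene. An ISRE on the reverse strand reads TTTC, any 2 bases and TTTC.
Isg15 ISRE, 72 bases before the start, chr4:156200866-156200905, minus strand: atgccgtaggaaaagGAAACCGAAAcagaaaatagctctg
Ifit1 reverse ISRE, 104 bases before the start, chr19:34640770-34640809, plus strand: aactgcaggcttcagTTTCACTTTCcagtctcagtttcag
Gbp2 reverse ISRE, 59 bases before the start, chr3:142620589-142620628, plus strand: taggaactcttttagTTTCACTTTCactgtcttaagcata
Stat2 reverse ISRE, 222 bases before the start, chr10:128270261-128270300, plus strand: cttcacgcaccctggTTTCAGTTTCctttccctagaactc
B2m ISRE, 139 bases before the start, chr2:122147533-122147572, plus strand: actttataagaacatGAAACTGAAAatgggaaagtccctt
Irf1 GAS, 90 bases before the start, chr11:53769909-53769947, plus strand: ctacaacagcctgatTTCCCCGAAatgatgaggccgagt
Psmb8 GAS, 97 bases before the start, chr17:34198083-34198121, plus strand: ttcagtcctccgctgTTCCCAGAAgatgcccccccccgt
Distances are from RefSeq starts, and the GENCODE M21 annotation places some genes otherwise. There, Gbp2 starts at 142620602 and Psmb8 at 34197721, so the Gbp2 sequence reaches into its gene and the Psmb8 sequence lies inside it. A match is a description of letters, not evidence of binding. Of the members tested with a window, 13 held the ISRE core and 13 did not. Their median log2 changes were 0.18 with the core and 0.30 without it, and wild-type library 1 was above both other wild-type libraries for 10 in each set. The genotypes did not overlap for 4 of 13 members higher in each set, beside 17.9% of all genes. Ifit2, the member lower without overlap in R206H, had no ISRE core in the bases searched.

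Other genes of the pathway came from lists chosen by name, also with earlier results of these data known. Of 24 tested genes of interferon and innate signalling, 1 was called higher (4.17%, against 1.26% of all genes) and none lower. That gene was Socs3, a feedback inhibitor of cytokine receptors, with 37.7, 39.7 and 61.2 TPM in R206H libraries against 24.2, 20.3 and 16.4 TPM in wild-type libraries (log2 change 1.13, limma adjusted p = 0.0496). The genotypes did not overlap for 12 of the 24 (50%, against 32.9% of all genes), with a list median of 0.15. Of these, 11 were higher in R206H (45.8% of the list, against 17.9% of all genes).

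Of 37 other ISGs tested, 2 were called higher (5.41%, against 1.26% of all genes) and none lower, with a list median of 0.20. Shisa5, which encodes a membrane protein of the endoplasmic reticulum, had 133, 131 and 139 TPM in R206H libraries, against 112, 107 and 106 TPM in wild-type libraries (log2 change 0.31, limma adjusted p = 0.0476). Ifi204, a member of the interferon-inducible p200 family, had 4.51, 4.54 and 5.38 TPM in R206H libraries, against 2.32, 2.08 and 2.35 TPM in wild-type libraries (log2 change 0.84, limma adjusted p = 0.0476). The genotypes did not overlap for 4 higher and 2 lower of the 37, below the shares over all genes. Wild-type library 1 was above both other wild-type libraries for 30 of the 37, or 81.1%, and above 1.5 times each for 10, or 27.0%, so these ISGs shared the pattern of the members. Socs3, Shisa5 and Ifi204 each missed the threshold without wild-type library 1, 2 or 3 or R206H library 2 or 3, at limma adjusted p of 0.0501 to 0.166.

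None of 18 other class I presentation genes was called by limma or by voom. At an unadjusted limma p under 0.05, 2 were higher (11.1%, against 14.4% of all genes). The genotypes did not overlap for 3, all higher in R206H (16.7%, against 17.9% of all genes). The smallest p were for Mr1, a class I-like molecule that presents vitamin B metabolites, at 4.70 ± 0.48 TPM in R206H and 3.07 ± 0.483 TPM in wild type (limma adjusted p = 0.11), and for the chaperone gene Calr, at 1618 ± 81.4 TPM in R206H and 1423 ± 111 TPM in wild type (limma adjusted p = 0.177). None of 8 tested class II genes was called by limma or by voom. Of the 8, 3 had an unadjusted p under 0.05, beside 26.1% of all genes, and 1 of these, H2-DMb1, reached the filter only through the R206H libraries and so had to differ. Rfx5, a class II transcription factor gene, averaged 10.3 ± 1.06 TPM in R206H and 7.25 ± 0.861 TPM in wild type (limma adjusted p = 0.0852). H2-Eb1, a class II beta chain gene, averaged 2.22 ± 0.204 TPM in R206H and 1.13 ± 0.282 TPM in wild type (limma adjusted p = 0.115).

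Transcripts of the interferons themselves were hardly detected. Of 13 interferon genes listed, 10 were at 0 in all 6 libraries, Ifnb1 among them, where 1 read would have been worth 0.197 to 0.283 TPM. Ifnab had 2 reads in R206H library 1, and Ifng and Ifnz had 1 read each in R206H library 3. At this depth a low interferon level was not detectable in either genotype.

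**Figure D4:**
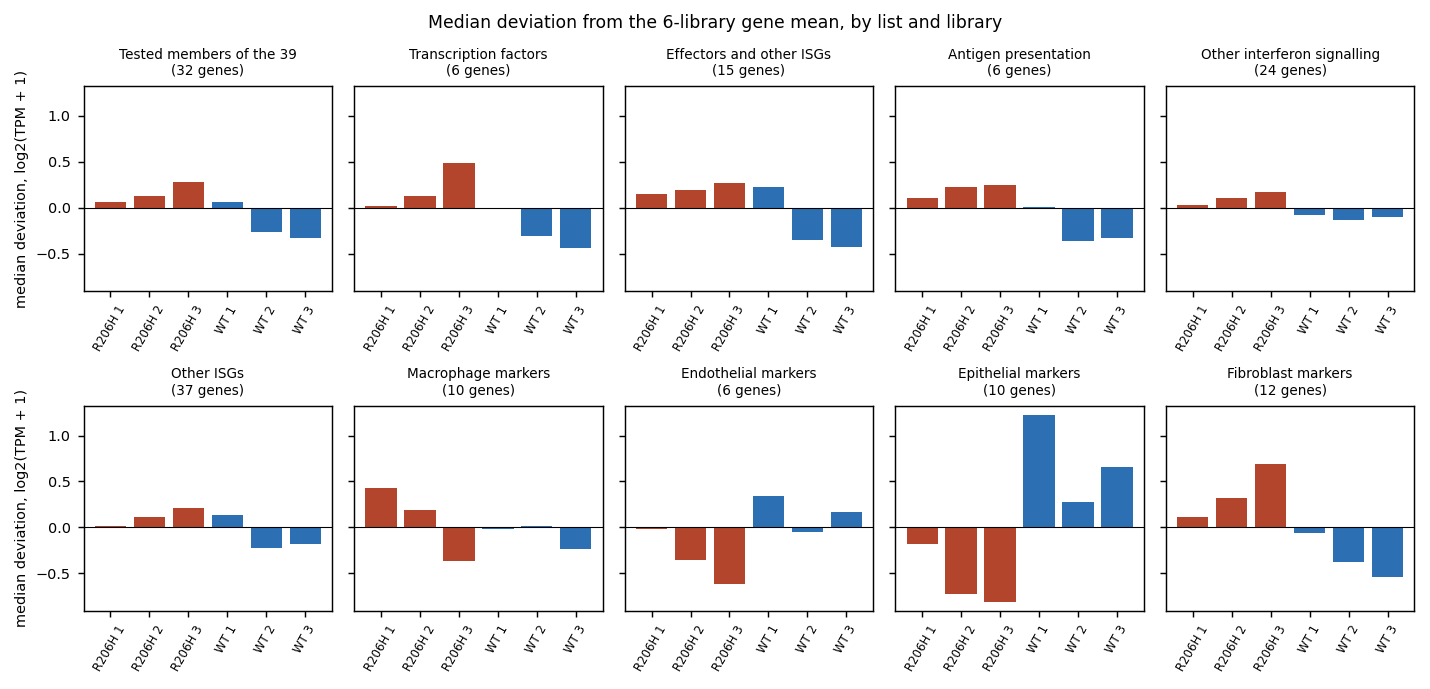
Bars give, for each library, the median over a list's tested genes of the deviation of log2(TPM + 1) from the gene's mean over the 6 libraries, R206H libraries in red at the left and wild-type libraries in blue. Wild-type library 1 is at 0.23 for the effector genes and at 1.225 for the epithelial markers, above wild-type libraries 2 and 3 in both.

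Markers of other cell types varied along with some of these values. Macrophage markers, 15 genes on 16 rows, summed to 142, 108 and 58.3 TPM in R206H libraries and 107, 88.3 and 70.1 TPM in wild-type libraries, so the genotypes overlapped and R206H library 3, high for many members, was lowest. The 7 lymphoid markers summed to 0.215 to 1.00 TPM in R206H libraries and 0.27 to 0.724 TPM in wild-type libraries, with Ncr1 at 0 in all 6. The 9 endothelial markers summed to 21.1, 16.7 and 16.3 TPM in R206H libraries and 45.1, 20.3 and 23.8 TPM in wild-type libraries, with wild-type library 1 the highest. Summed epithelial marker TPM, from 12 genes, was 197 to 399.7 in R206H libraries against 545 to 638 in wild-type libraries. Of the 10 epithelial markers tested, all 10 were lower at an unadjusted limma p under 0.05, against 11.7% of all genes. By voom, 6 were called lower (60%, against 4.09% of all genes). With limma, the junction gene Cldn3 (adjusted p = 0.0272) and the adhesion gene Epcam (0.0476) were called lower, beside 0.790% of all genes. Epcam and another junction gene, Cldn7, reached the filter only through the wild-type libraries and so had to differ. The 5 mesothelial markers summed to 143, 93.6 and 45.5 TPM in R206H libraries and 169, 129 and 160.2 TPM in wild-type libraries, and limma called 1 of them, Msln, lower (adjusted p = 0.0489). None of the 12 fibroblast markers was called by limma, but 9 were higher in R206H without overlap (75%, against 17.9% of all genes). At an unadjusted limma p under 0.05, 9 were higher, against 14.4% of all genes. The library medians of the fibroblast markers were 0.12, 0.32 and 0.69 in R206H libraries and -0.06, -0.38 and -0.54 in wild-type libraries, the same order of libraries as for the members. The mitochondrial genome contributed 3.43% to 3.85% of TPM in R206H libraries and 4.16% to 4.57% in wild-type libraries. The part of cell makeup in the members' values was not tested.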

How the data were processed

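The authors deposited TPM for Ensembl genes, 1 column per library, and each column sums to 1000000. The tools, per the submitters' processing notes, were DESeq2, featureCounts, STAR, Subread and Trimmomatic, on mm10 and GRCm38, without versions, roles or order. The sources used here name no strand setting, gene lengths or annotation release, so overlapping and antisense genes cannot be told apart. TPM is a share, so abundant transcripts lower all others.

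Members were rows matched by gene symbol. Genes that reached 1 TPM in 3 or more libraries entered a limma fit of log2(TPM + 1) (version 3.58.1, R 4.3.3, lmFit, eBayes with trend, two-sided, Benjamini-Hochberg over 14818 genes), with no covariate. Whole reads were rebuilt with exon-union lengths from GENCODE M21 (GRCm38, matching 49056 of 49315 genes): 91.1% to 91.5% of non-zero values under 100 reads were whole within 0.05. Python 3.11.15 with pandas 2.3.3 did the joins. Alternatives were other pseudocounts, filters and scalings, quantile normalization, no trend, library weights, the replicate block, voom and leaving out each library.

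The members and lists were chosen with earlier results of these data known. Per-library values were given for members called, members without overlap and the 4 most abundant in each role, and for other members chosen after their values were seen. From the other lists, called genes were named, or else the 2 with the smallest p, and Apol9a, Mb and Rbfox2 were added after their values were seen. Exon overlaps with another annotated gene existed for 16 of the 39 members. P-values measure the spread between these libraries only.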

Additional observations from a re-analysis of the deposited data

How the results depend on the processing

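The median log2 change of the tested members stayed positive under all 17 alternatives, at 0.17 to 0.40, or 0.21 to 0.46 with 1 library left out. The number of genes called moved much more. Over all genes it was 303, and 129 with a pseudocount of 0.1, 200 with quantile normalization, 587 with a filter at 5 TPM, 2 with no filter, 27 without the trend, 1906 with library weights, 1285 with voom, 0 with the replicate block, and 0 to 729 with 1 library left out. Members called higher numbered 1, and 0 with pseudocounts of 0.1 and 5, no filter, quantile normalization, no trend or the replicate block, 9 with library weights, 7 with voom, and 0 to 4 with 1 library left out. Members called lower numbered 0, and 1, Ifit2, with the filter at 5 TPM, library weights or voom. The causes were not tested. Same-numbered libraries had correlations of -0.028 to 0.06 between genotypes, and differently numbered ones -0.052 to 0.03. These correlations cannot decide whether the numbers pair the samples, which the sources used here do not say. The block fit had 3301 genes at an unadjusted limma p under 0.05. Small changes switched sign. Ifih1 was at -0.0076 with library weights. Dhx58 was at -0.0083 with median-of-ratios scaling, -0.0038 with quantile normalization and -0.031 with voom. With 1 library left out, log2 changes ran from -0.05 to 0.22 for Ifih1, -0.083 to 0.24 for Ddx58, -0.035 to 0.084 for Dhx58, -0.064 to 0.022 for Irf2, -0.12 to 5.8e-05 for Irf3, -0.051 to 0.26 for Ifit3, -0.32 to 0.036 for Isg20, -0.0027 to 0.71 for Oas1a and -0.092 to 0.29 for Parp14. For Apol6 the adjusted p ran from 0.016 to 0.166 over the 13 alternatives in which it was tested. It could not be tested at 5 TPM or without an R206H library. Depth limits Apol6 in wild type and the members under 1 TPM.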
